A study of Mus musculus with 48 samples.

Results

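Carbonic anhydrases and a bicarbonate transporter were followed in RNA of the mouse substantia nigra (SN), a midbrain nucleus rich in dopaminergic neurons. The 9 genes were chosen by symbol out of 19601 protein-coding genes in the batch-corrected tables: *Car2*, *Car4*, *Car8*, *Car9*, *Car10*, *Car11*, *Car12*, *Car14* and *Slc4a4*. Male C57BL/6J mice, 121 days old at surgery, had received α-synuclein (α-syn) preformed fibrils (PFF), which seed aggregation of the animal's own α-syn, or monomeric α-syn as the control, into the right striatum only, and then breathed 21% or 11% O2 until the SN was taken, nominally 12 weeks later. By the dates in the labels this was 90 or 91 days after injection in every analysed mouse but monomer mouse 11 at 11% O2, taken at 98 days. Without that mouse *Car4* and *Car14* changed by 0.55 (adjusted p 0.000386) and 0.52 (adjusted p 6.58e-05) on the log2 scale in monomer mice at 11% O2, so both were still called. No mouse carried a transgene, every group had surgery with an α-syn protein, and no uninjected group was analysed here. The study's text places the mice in 21% or 11% O2 for the whole 12 weeks, whereas the deposited design text gives 6 weeks of 21% O2 for all and 6 further weeks of 21% or 11%, so the length of the low O2 exposure is uncertain in the sources used here.

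Of 48 mice, 12 in each group, the authors left 6 out as outliers. The 42 analysed were 11 monomer and 12 PFF mice at 21% O2 and 9 monomer and 10 PFF mice at 11% O2, each a separate animal. They carried between 12902996 and 17120921 counts on genes. Batches, numbered in the labels and tied in the study's methods to the date of killing, were unevenly filled: monomer mice at 21% O2 came from batches 1 and 2 only, and monomer mice at 11% O2 from batches 1 and 3 only. In these mice *Slc6a3*, the dopamine transporter, averaged 1083 TPM (transcript abundance scaled to transcript length and library size) and *Th*, the rate-limiting enzyme of dopamine synthesis, 604 TPM. The tissue was bulk SN, so that more cells of a type and more RNA per cell cannot be told apart in any value below.

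Carbonic anhydrases catalyse the interconversion of carbon dioxide and water with bicarbonate and a proton. Isoforms differ in where they act: CA2 is cytosolic, CA4 is held on the outer cell surface by a lipid anchor and is known from the luminal face of brain capillaries, and CA9, CA12 and CA14 cross the membrane with the active site outside the cell. CA8, CA10 and CA11 are related proteins that lack the catalytic activity. *Slc4a4* encodes NBCe1, an electrogenic sodium-bicarbonate cotransporter known from astrocytes. *CA9* is a textbook target of the hypoxia-inducible factors (HIF) in tumours.

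Among the 9 genes, only *Car4* passed the test as higher in mice breathing 11% O2 after either injection, by 1.52-fold in monomer mice and 1.43-fold in PFF mice. *Car14* was 1.45-fold higher at 11% O2 in monomer mice and did not pass the test in PFF mice. No member passed the test for PFF against monomer at either O2 level, nor for the interaction of injection and O2. *Car9* was near the limit of detection in every group. A gene was called when edgeR's quasi-likelihood test, fitted to the batch-corrected counts of all 42 mice, gave a Benjamini–Hochberg adjusted p under 0.05 over the 14839 genes tested and an absolute log2 fold change above 0.25.

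**Figure D1:**
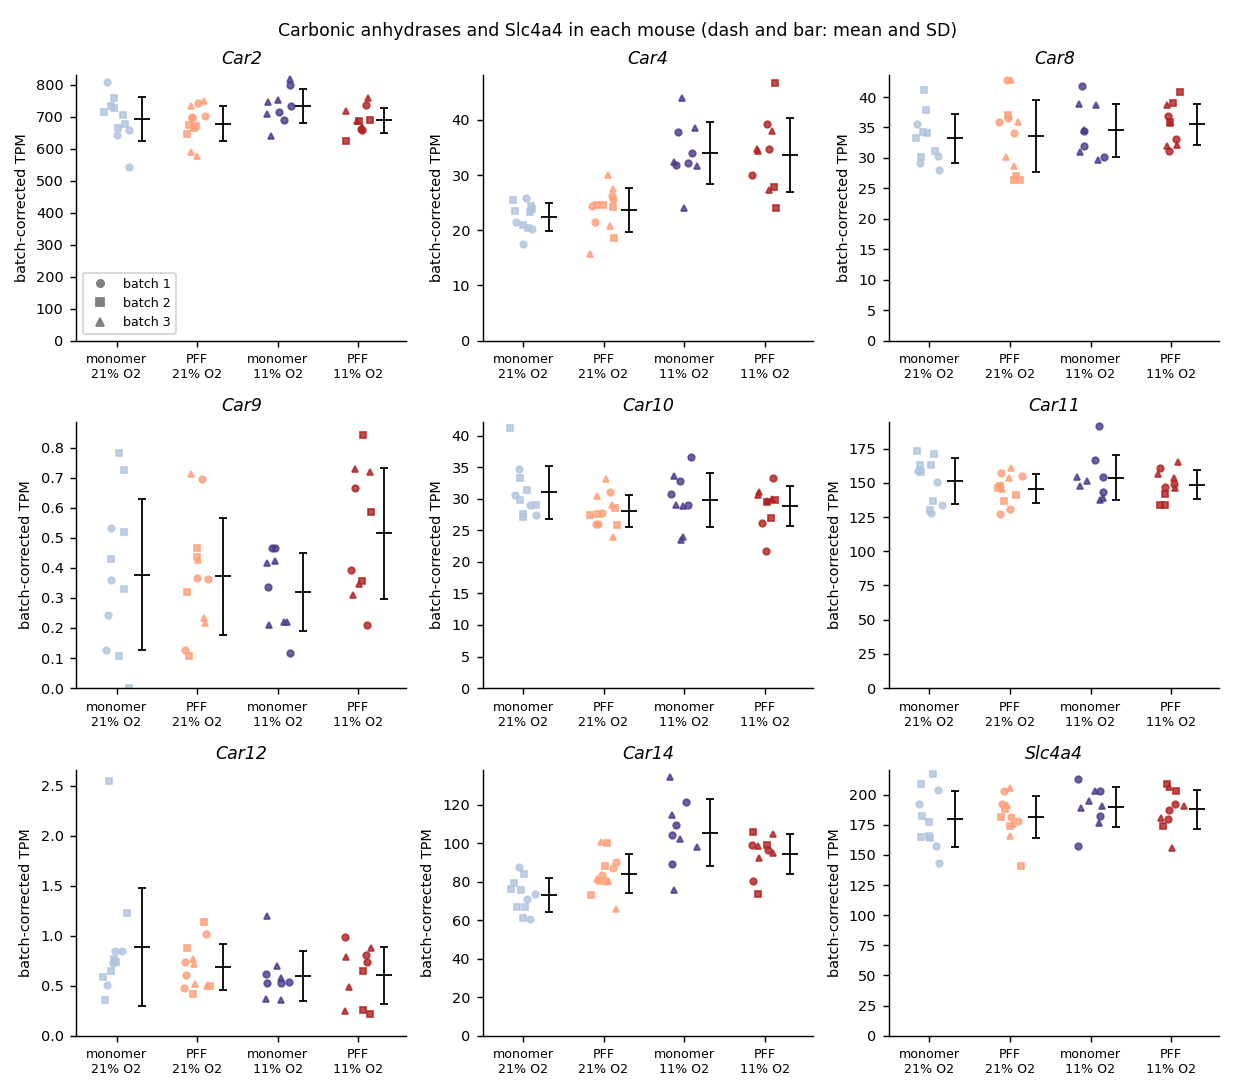
Batch-corrected TPM of each of the 9 genes (y axis, from 0) in each of the 42 mice by group (x axis). Points are mice, their shape gives the batch, and the dash and bar to the right of each group are its mean and SD. *Car4* stands higher in both 11% O2 groups, *Car14* rises most in monomer mice at 11% O2, and *Car9* and *Car12* stay below 3 TPM in every mouse.

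The members differed widely in level. *Car2* was the most abundant at 697 ± 57.6 TPM (mean ± SD, n = 42), followed by *Slc4a4* at 184.3 ± 18.5, *Car11* at 150 ± 13.6 and *Car14* at 88.3 ± 16.4 TPM. *Car8* followed at 34.2 ± 4.51, *Car10* at 29.4 ± 3.63 and *Car4* at 28.0 ± 7.18 TPM. *Car12* reached 0.703 ± 0.379 and *Car9* 0.396 ± 0.210 TPM. The order of neighbours was the same in all 42 mice for *Car2* over *Slc4a4*, *Car11* over *Car14*, *Car14* over *Car8* and *Car4* over *Car12*. By contrast, *Car8* exceeded *Car10* in 31 and *Car10* exceeded *Car4* in 26 of the 42 mice, so these 3 genes are not separated beyond their spread between mice. *Slc4a4* exceeded *Car11* in 37 mice. The filter on low counts kept 8 of the 9 members. It dropped *Car9*, which therefore has no place in the counts of calls.

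*Car4* (ENSMUSG00000000805.18, chromosome 11: 84957786-84966044, plus strand, GRCm38) ranged in monomer mice at 21% O2 from 17.4 to 25.8 TPM with a median of 23.3, and in PFF mice at 21% O2 from 15.7 to 30.0 with a median of 24.4. At 11% O2 it ranged from 24.0 to 43.9 TPM with a median of 32.4 in monomer mice, and from 24.0 to 46.7 with a median of 34.6 in PFF mice. Of the 9 monomer mice at 11% O2, 8 lay above every monomer mouse at 21% O2, and of the 10 PFF mice at 11% O2, 7 lay above every PFF mouse at 21% O2, so both pairs of groups overlapped at their edges.

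In monomer mice *Car4* at 11% O2 exceeded that at 21% by a log2 fold change of 0.60 (adjusted p 8.75e-05, SE 0.104). In PFF mice the difference was 0.51 (SE 0.0991, adjusted p 0.00272). The difference between these changes, the interaction, was -0.09 with an interval of 2 SE from -0.38 to 0.20 (adjusted p 0.821). At equal O2 neither comparison of injections passed for *Car4*. PFF against monomer gave 0.09 at 21% O2 (adjusted p 0.622) and 0.0013 at 11% O2 (interval -0.21 to 0.21, adjusted p 1.00). These 4 comparisons share groups and are not independent of each other.

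Within batches the *Car4* changes with 11% O2 were close to those over all mice. On the counts before batch correction, the change with 11% O2 in monomer mice was 0.70 in batch 1 (SE 0.137, adjusted p 0.0202), the only batch holding both groups. In PFF mice it was 0.50, 0.54 and 0.51 in batches 1, 2 and 3, but with 3 or 4 mice a group none of these passed, at adjusted p from 0.408 to 0.913. PFF against monomer at 21% O2 was less even, at 0.24 in batch 1 (adjusted p 0.455) and 0.0066 in batch 2 (adjusted p 0.988). With all 48 mice, batch as a covariate and the uncorrected counts, the change of *Car4* was 0.63 in monomer mice (adjusted p 0.000672, SE 0.120) and 0.49 in PFF mice (adjusted p 0.00291, SE 0.0979). Among the 6 mice left out by the authors, *Car4* before correction was 41.1, 41.1 and 48.9 TPM in 3 monomer mice at 11% O2, 30.4 and 16.7 in 2 PFF mice at 11% O2, and 25.4 in the monomer mouse at 21% O2. The lowest of these came from the library with 3134594 counts on genes, the smallest of all 48.

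*Car14* (ENSMUSG00000038526.14, chromosome 3: 95897768-95904691, minus strand) encodes the membrane-spanning CA14. It ranged from 60.4 to 87.5 TPM with a median of 73.5 in monomer mice at 21% O2, and from 66.0 to 100 with a median of 82.2 in PFF mice at 21% O2. At 11% O2 it ranged from 75.8 to 135 TPM with a median of 104 in monomer mice, and from 73.5 to 106 with a median of 97.4 in PFF mice. Of the 9 monomer mice at 11% O2, 8 exceeded every monomer mouse at 21% O2, while only 2 of the 10 PFF mice at 11% O2 exceeded every PFF mouse at 21% O2. The 4 group means thus ran from 73.0 ± 8.83 through 84.3 ± 9.91 and 94.5 ± 10.3 to 105 ± 17.4 TPM, in the order monomer at 21%, PFF at 21%, PFF at 11% and monomer at 11% O2.

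The change of *Car14* with 11% O2 was 0.53 in monomer mice (SE 0.0826, adjusted p 1.96e-05) and 0.17 in PFF mice (SE 0.0788, 2 SE interval 0.01 to 0.33, unadjusted p 0.0382, adjusted p 0.437). The test of their difference gave -0.37 (SE 0.114, unadjusted p 0.00254), which did not pass the adjustment (adjusted p 0.0767). It passed in 4 of 42 fits that each left out 1 mouse. At 21% O2 the mice left out were monomer mouse 3 (adjusted p 0.0474) and PFF mouse 11 (0.0447). At 11% O2 they were monomer mouse 3 (0.0459) and monomer mouse 5 (0.0267). Under 12 other settings, including the main fit without the fold threshold, the interaction never passed, at adjusted p from 0.0519 to 0.521. PFF against monomer gave 0.22 at 21% O2 (SE 0.0776, adjusted p 0.0680) and -0.14 at 11% O2 (SE 0.0841, adjusted p 1.00). Leaving out monomer mouse 3 or PFF mouse 11 at 21% O2 brought the first of these past both thresholds, at 0.25 (adjusted p 0.0377) and 0.25 (adjusted p 0.0342). These were 2 of 42 such fits. Under 14 other settings for that comparison, again including the main fit without the fold threshold, the adjusted p ran from 0.0350 to 0.427. Of these, 1 called *Car14*. The comparison of injections at 21% O2 and that of O2 levels in monomer mice rest on the same 11 monomer mice at 21% O2.

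Batches gave *Car14* the same directions. The change with 11% O2 in monomer mice was 0.55 in batch 1 (SE 0.133, adjusted p 0.0429), and in PFF mice it was 0.09, 0.15 and 0.24 in batches 1, 2 and 3 (adjusted p from 0.747 to 0.996). PFF against monomer at 21% O2 was 0.25 in batch 1 (adjusted p 0.427) and 0.24 in batch 2 (adjusted p 0.188). In the annotation, 17.5% of the exon bases of *Car14* (445 of 2543) lie opposite exons of *Aph1a*, which encodes a subunit of γ-secretase. The library kit does not mark strand, so reads from the shared bases cannot be assigned to either gene. *Aph1a*, named here after its values were seen, was higher in monomer mice at 11% O2 by 0.17 (SE 0.0493, adjusted p 0.0151), under the fold threshold, and its part in the *Car14* values was not tested.

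**Figure D2:**
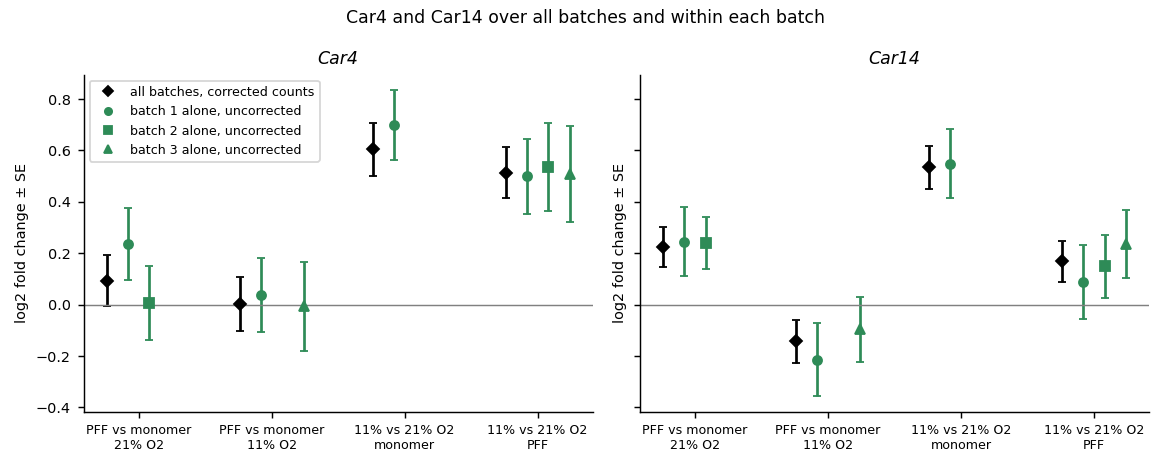
Log2 fold changes of *Car4* and *Car14* with their SE (y axis) in the 4 pairwise comparisons (x axis). Black diamonds are the fit to the batch-corrected counts of 42 mice and green symbols are fits to the uncorrected counts of each batch that holds both groups. *Car4* sits between 0.50 and 0.70 in every fit of 11% against 21% O2, and *Car14* is higher in monomer than in PFF mice in that contrast.

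HIF binds a short core within hypoxia response elements, most often ACGTG. A variant core begins with G in place of A and reads GCGTG. Promoter windows from RefSeq on GRCm38.p6, of 250 bases before and 50 after a start site, were at hand for 7 of the 9 members, and not for *Car2* and *Car8*. To show where the core lies in the pair of genes that moved with O2 and in *Car9*, 120 bases before and 30 from the start site are printed 5′ to 3′ on the gene's own strand, with capitals where either core occurs on either strand.
Car4 (chr11:84957634-84957783, plus strand): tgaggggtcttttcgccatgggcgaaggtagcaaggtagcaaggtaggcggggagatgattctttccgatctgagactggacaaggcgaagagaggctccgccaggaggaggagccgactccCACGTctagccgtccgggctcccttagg
Car14 (chr3:95904656-95904805, minus strand): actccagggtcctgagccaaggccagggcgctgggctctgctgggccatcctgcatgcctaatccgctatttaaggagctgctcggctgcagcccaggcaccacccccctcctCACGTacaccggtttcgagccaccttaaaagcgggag
Car9 (chr4:43506906-43507055, plus strand): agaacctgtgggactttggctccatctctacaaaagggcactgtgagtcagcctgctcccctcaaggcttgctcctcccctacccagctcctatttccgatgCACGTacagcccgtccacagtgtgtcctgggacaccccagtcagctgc

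Each of these 3 windows held exactly 1 match, in each case the main core on the opposite strand, printed as CACGT. Its first letter lay 2 bases after the start base of *Car4*, 7 before that of *Car14* and 18 before that of *Car9*. RefSeq's start of *Car4*, at 84957754, precedes the GENCODE gene start given above. Of all 32851 promoter windows, 19.6% held ACGTG on either strand, 32.4% held GCGTG and 43.8% held either. The windows of the other members held GCGTG in *Car11* (both of its promoters) and *Slc4a4* (1 of 2) and ACGTG in *Car10* (1 of 2), none of which was called at 11% O2, and no core in *Car12*. A match describes letters in a window and says nothing of binding.

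In all, 2 of the 8 members tested were called in monomer mice at 11% against 21% O2, beside 7.23% of all genes tested (4.68% higher). In PFF mice it was 1 of 8, beside 0.58% of all genes (0.438% higher). The members' median log2 fold change was 0.07 in monomer and 0.05 in PFF mice, against -0.01 over all genes in both. PFF against monomer called 0 of 8 members at 21% O2, beside 3.7% of all genes, and 1 member, *Car14*, had an unadjusted p under 0.05, as did 22.4% of all genes. At 11% O2 it called 0 of 8 members and 0% of all genes, with 0 members and 581 genes (3.92%) at an unadjusted p under 0.05. DESeq2 called 0 members in either of these comparisons. The interaction called 0 of 8 members, beside 2.14% of all genes, and DESeq2 also gave 0, with 1 member, *Car14*, and 15.4% of all genes under an unadjusted p of 0.05.

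**Figure D3:**
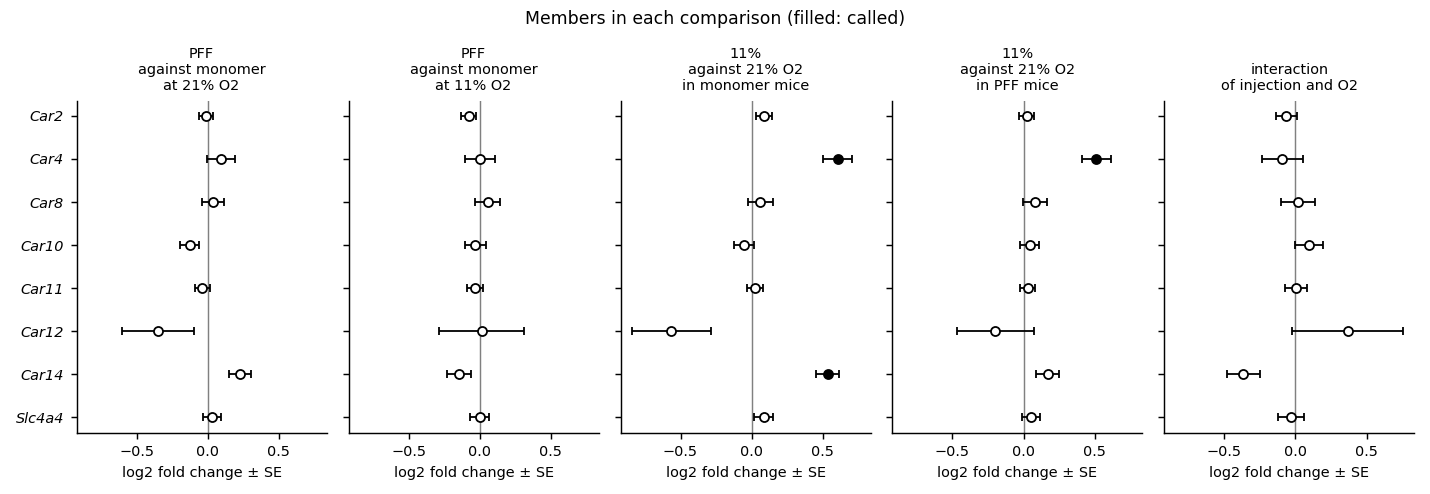
Log2 fold change of the 8 tested members (x axis, bars are 1 SE) in each of the 5 comparisons, by gene (y axis). Filled points are called: *Car4* in both comparisons of 11% with 21% O2 and *Car14* in monomer mice. *Car12*, the least abundant of the 8, has the widest bars.

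*Car2* encodes the abundant cytosolic enzyme of oligodendrocytes and other glia (ENSMUSG00000027562.12, chromosome 3: 14886273-14900770). Its group means were 694 ± 69.6 and 679 ± 54.4 TPM in monomer and PFF mice at 21% O2, and 734 ± 54.1 and 688 ± 39.9 TPM at 11% O2. The groups overlapped throughout. The change with 11% O2 was 0.09 in monomer mice (2 SE interval -0.02 to 0.19, adjusted p 0.307) and 0.02 in PFF mice (interval -0.08 to 0.13, adjusted p 0.908). PFF against monomer gave -0.01 at 21% O2 (adjusted p 0.900) and -0.08 at 11% O2 (adjusted p 1.00).

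*Slc4a4*, the bicarbonate importer (ENSMUSG00000060961.16 in the tables, version 14 of the same gene in the annotation used for its position, chromosome 5: 88886818-89239653), averaged 179.7 ± 23.3, 181.4 ± 17.4, 189.9 ± 16.6 and 187.9 ± 16.1 TPM in monomer and PFF mice at 21% O2 and monomer and PFF mice at 11% O2. The groups covered nearly the same range, 141 to 216.95 TPM in all. Its changes with 11% O2 were 0.08 in monomer (interval -0.05 to 0.22, adjusted p 0.449) and 0.05 in PFF mice (interval -0.08 to 0.18, adjusted p 0.816), and those with PFF were 0.03 at 21% O2 (adjusted p 0.819) and within 0.14 of no change at 11% O2 (interval -0.14 to 0.14, adjusted p 1.00).

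The non-catalytic members did not pass in any comparison. *Car8* encodes a protein that binds the inositol trisphosphate receptor, and it averaged 33.2 ± 3.98 and 33.7 ± 5.92 TPM at 21% O2 and 34.6 ± 4.36 and 35.5 ± 3.377 TPM at 11% O2 in monomer and PFF mice. Its difference of PFF from monomer at 21% O2, 0.04 over all mice, was 0.33 in batch 1 (unadjusted p 0.0177, adjusted p 0.334) and -0.21 in batch 2 (unadjusted p 0.0368, adjusted p 0.205), opposite in sign. Its change with 11% O2 in PFF mice was likewise -0.18, 0.40 and 0.0019 in batches 1, 2 and 3.

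*Car10* and *Car11* encode secreted partners of neurexins, the presynaptic adhesion proteins. *Car10* averaged 31.0 ± 4.15 and 28.0 ± 2.58 TPM in monomer and PFF mice at 21% O2, with 9 of the 12 PFF mice below the monomer median, and 29.8 ± 4.31 and 28.9 ± 3.22 TPM at 11% O2. Its lower value in PFF mice at 21% O2, -0.13 (SE 0.0662), did not pass (unadjusted p 0.0628, adjusted p 0.254). *Car11* averaged 152 ± 16.6, 146 ± 10.4, 154 ± 16.6 and 149 ± 10.6 TPM in the same order. Although 11 of the 12 PFF mice at 21% O2 lay below the monomer median, the groups overlapped and the fold change was -0.04 (interval -0.14 to 0.07, adjusted p 0.717).

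Both membrane isoforms known from tumour hypoxia were scarce. *Car9* averaged 0.378 ± 0.251 and 0.372 ± 0.194 TPM at 21% O2, and 0.319 ± 0.130 and 0.515 ± 0.218 TPM at 11% O2 in monomer and PFF mice, and 1 of the 42 mice had a level of 0. Fitted without the filter, it gave -0.22 at 11% O2 in monomer mice (SE 0.359, adjusted p 0.772) and 0.44 in PFF mice (SE 0.316, adjusted p 0.713), neither of which passed. PFF against monomer gave 0.0083 at 21% O2 (SE 0.318, adjusted p 1.00) and 0.67 at 11% O2 (SE 0.349, unadjusted p 0.0625, adjusted p 0.985), where 5 of the 10 PFF mice lay above every monomer mouse, and the interaction was 0.66 (SE 0.478, adjusted p 0.604). No change of *Car9* was detected. *Car12* averaged 0.890 ± 0.592 and 0.690 ± 0.231 TPM at 21% O2, and 0.600 ± 0.2503 and 0.605 ± 0.284 TPM at 11% O2. Monomer mouse 7 at 21% O2 stood at 2.54 TPM, against 1.23 in the next mouse of its group. The change of *Car12* with 11% O2 in monomer mice was -0.56 (SE 0.278, unadjusted p 0.0482, adjusted p 0.177), and it ran from -0.76 to -0.26 as each mouse was left out in turn.

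Other genes that handle acid and base were described by lists of 8 other carbonic anhydrases, 9 bicarbonate transporters, 9 sodium-proton exchangers, 6 genes of proton-linked monocarboxylate transport and 11 acid-sensing channels and receptors. In monomer mice at 11% O2, 4 of their 37 tested genes were called, all higher, beside 7.23% of all genes (4.68% higher). They were *Slc4a2*, a chloride-bicarbonate exchanger (0.36, SE 0.0653, adjusted p 0.000206), *Slc9a8*, a sodium-proton exchanger of the Golgi (0.26, SE 0.0478, adjusted p 0.000252), *Slc16a1*, the lactate and proton carrier MCT1 (0.29, SE 0.0743, adjusted p 0.00749), and *Slc16a3*, the lactate exporter MCT4 (0.74, SE 0.169, adjusted p 0.00237).

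In PFF mice at 11% O2, *Slc16a3* alone of these was called (0.74, SE 0.161, adjusted p 0.0110), beside 0.58% of all genes. *Slc16a3* averaged 6.18 and 6.28 TPM in monomer and PFF mice at 21% O2, and 10.3 and 10.5 TPM at 11% O2. None of the 37 was called for PFF against monomer at 21% or 11% O2 or for the interaction. Of the 8 other carbonic anhydrases, 6 passed the filter on low counts, and none of these was called in any comparison. The smallest p of that list was for *Car5a*, a mitochondrial isoform, at 11% O2 in PFF mice (0.44, SE 0.214, adjusted p 0.446), and that of the acid-sensing list was for *Asic2*, a proton-gated cation channel, at 11% O2 in monomer mice (-0.23, SE 0.0864, adjusted p 0.0753). The median log2 fold changes of the 5 lists lay between -0.08 and 0.25 in monomer and between 0.01 and 0.17 in PFF mice, the highest in each being proton-linked monocarboxylate transport.

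**Figure D4:**
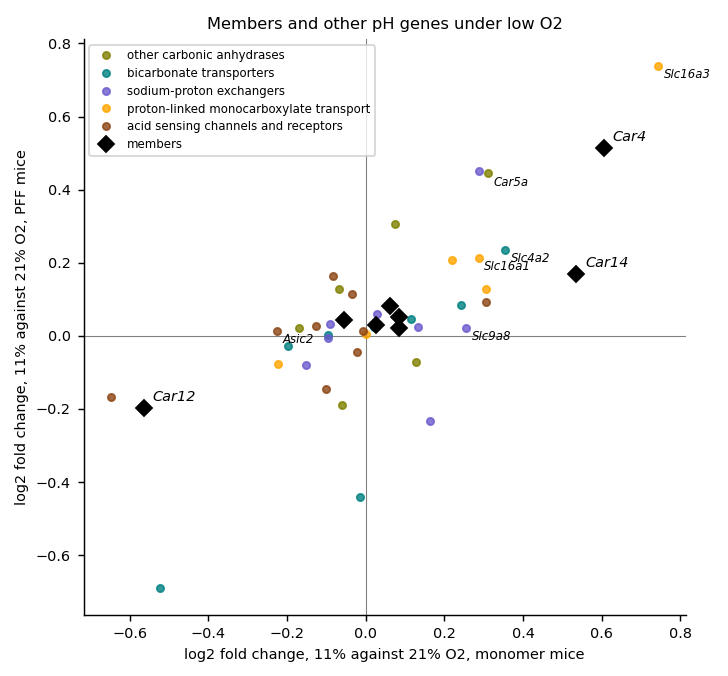
Log2 fold change at 11% against 21% O2 in monomer mice (x axis) and in PFF mice (y axis), which share no mice, for the 8 tested members (black diamonds) and the tested genes of 5 acid-base lists (coloured by list). *Car4* and *Slc16a3* lie far along both axes, *Car14* mainly along the monomer axis, and most genes lie near 0 on both.

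As a check of the low O2 itself, all 7 HIF target and angiogenic genes that the study names from these same samples, and which are thus no independent evidence, were called higher at 11% O2 in monomer and in PFF mice. *Vegfa* rose by 0.89 (SE 0.0504) and 0.94 (SE 0.0482), larger than the change of any member. Between injections none of the 7 was called at either O2 level.

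Markers of other cells moved in the same comparisons. Of 8 endothelial genes, 6 were called higher at 11% O2 in monomer mice (median log2 fold change 0.52), beside 4.68% of all genes, and 2, *Cldn5* and *Flt1*, in PFF mice (median 0.28), beside 0.438%. Their summed level had a median of 402 TPM (range from 338) in monomer and 410 (range from 304) in PFF mice at 21% O2, and 545 (from 405) and 476 (from 427) at 11% O2. *Car4*, by comparison, changed by 0.60 and 0.51. Of 10 oligodendrocyte genes, 3, *Mog*, *Opalin* and *Cnp*, were called higher at 11% O2 in monomer mice (median 0.22) and none in PFF mice (median -0.01), and 2, *Mog* and *Opalin*, were called for the interaction, lower, beside 2.14% of all genes in either direction. For PFF against monomer at 21% O2, where 3.7% of all genes were called, 1 oligodendrocyte gene, *Opalin* (0.60, SE 0.104, adjusted p 0.000259; list median 0.06), and 1 endothelial gene, *Slco1a4* (0.45, SE 0.142, adjusted p 0.0416; list median 0.0064), were called higher. *Mog* (0.20, adjusted p 0.0284) and *Aspa* (0.23, adjusted p 0.0418) were under the fold threshold there. *Car14* differed by 0.22 in that comparison (adjusted p 0.0680). Red cell genes were called higher in monomer mice at 11% O2, 5 of 5 tested (median 1.32), and 0 of 5 were called in PFF mice (median 0.79). None of the 8 neuronal, 8 astrocyte, 8 microglial or 8 dopaminergic genes was called at 11% O2. The part of these cell types in the *Car4* and *Car14* changes was not tested.

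Variation among mice of the same group linked members to cell type marker lists. The log2 level of each of the 8 tested members was set against the mean of each of 8 cell type lists over 42 mice after removal of the group means, and 25 of 64 pairs passed a permutation test within group and batch (100000 permutations, adjusted p under 0.05). *Slc4a4* followed the astrocyte list (r = 0.86, rho = 0.84, permutation p 1e-05, the smallest that can be had, adjusted p 8e-05), and r was 0.91, 0.88 and 0.76 within batches 1, 2 and 3. *Car2* followed the oligodendrocyte list (r = 0.84, rho = 0.75, permutation p 1e-05, adjusted p 8e-05), with 0.84, 0.63 and 0.96 within batches. Without the 2 mice farthest from the list's median, r stayed at 0.81 for *Slc4a4* and 0.82 for *Car2*. The microglial list gave *Slc4a4* nearly the same tie (r = 0.86, rho = 0.87). *Slc4a4* also passed with the dopaminergic (r = -0.67), neuronal (-0.61), endothelial (0.44) and red cell (0.44) lists. *Car2* passed as well with the microglial (r = 0.58), astrocyte (0.57) and neuronal (-0.57) lists.

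*Car4* passed with a single list, the endothelial (r = 0.57, rho = 0.58, permutation p 0.00217, adjusted p 0.00811), with r of 0.35, 0.34 and 0.77 in batches 1, 2 and 3 and 0.50 without the 2 farthest mice. Its relation to the microglial list fell short of the threshold (r = 0.43, rho = 0.40, adjusted permutation p 0.0638). There r was 0.46, 0.43 and 0.43 in batches 1, 2 and 3, above the endothelial r in batches 1 and 2. *Car14* passed with 6 lists. It rose with the microglial (r = 0.80), astrocyte (0.80), oligodendrocyte (0.73) and endothelial (0.47) lists and fell with the neuronal (-0.80) and dopaminergic (-0.63) lists, at adjusted permutation p from 8e-05 to 0.0273. For the neuronal list rho was -0.77, r was -0.67, -0.70 and -0.95 within batches, and -0.73 without the 2 farthest mice. *Car10* went the other way, rising with the neuronal list (r = 0.51, rho = 0.53, adjusted permutation p 0.00261) and falling with the red cell list (r = -0.55, rho = -0.61, adjusted permutation p 0.000128). *Car10* also passed, falling, with the endothelial (r = -0.50), oligodendrocyte (-0.44), astrocyte (-0.44) and microglial (-0.40) lists.

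The other 3 had weaker ties. *Car8* followed the microglial list (r = 0.48, rho = 0.48, adjusted permutation p 0.0154), at 0.64, 0.54 and 0.20 within batches. *Car12* followed the choroid plexus list (r = 0.52, rho = 0.49, adjusted permutation p 0.0230), at 0.37, 0.72 and -0.10, so the relation did not hold in batch 3. *Car11* passed with none, its largest being the microglial list (r = -0.27, rho = -0.26, adjusted permutation p 0.126). Lists that share mice and a dissection are themselves correlated, so a pair that passed does not assign a member to a cell.

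**Figure D5:**
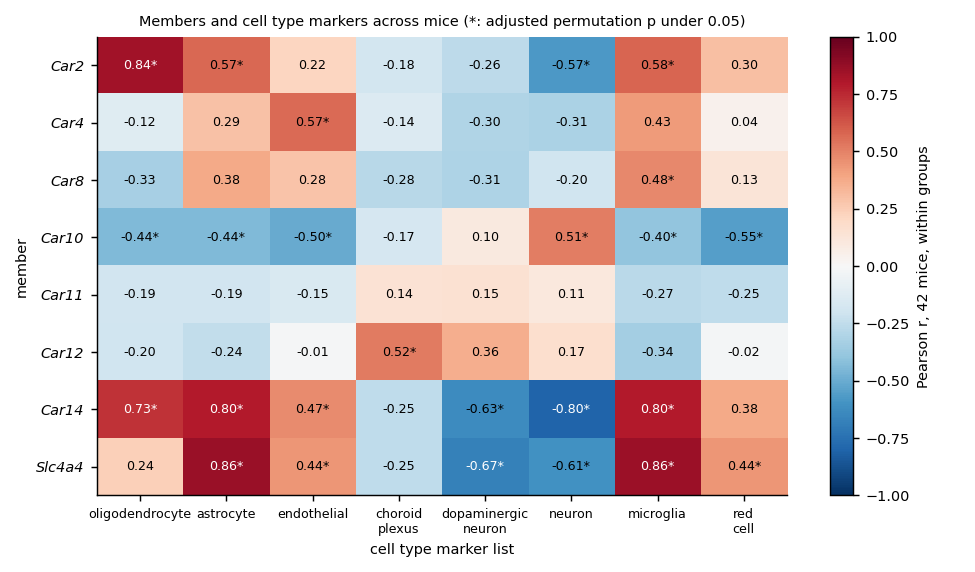
Pearson r over 42 mice, after removal of group means, between each tested member (y axis) and the mean of each cell type marker list (x axis), with red for positive and blue for negative values and a star where the adjusted permutation p is under 0.05. *Car2* peaks with oligodendrocytes, *Slc4a4* with astrocytes and almost equally with microglia, *Car4* with endothelium and *Car12* with choroid plexus. *Car10* and *Car14* have opposite signs against most lists.

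Genes among the 3 most like each member over the same 42 mice, among 14838 others and given as a description, were *Gatm* and *Plekhb1* for *Car2* (r = 0.91 each), *Gna13*, *Sparcl1* and *Suclg2* for *Slc4a4* (0.94 to 0.95), and *Olfml1*, *Sft2d2* and *Nde1* for *Car14* (0.85 to 0.86). For *Car4* they were *Ushbp1* (0.78), *Slc16a4*, a monocarboxylate transporter (0.72), and *Slc40a1*, the iron exporter ferroportin (0.72). *Plch1*, *Man1a* and *Mrpl18* were most like *Car8* (0.76 to 0.79), and *Sptb*, *Grin1*, which encodes the obligatory NMDA receptor subunit, and *Hipk4* were most like *Car10* (0.79 each). For *Car11* they were *Vps72*, *Atxn2l* and *Tsen34* (0.73 to 0.77), and for *Car12* *Prdm8* (0.73) and *Kcng2* (0.64). Among the members themselves the closest pairs were *Car2* with *Car14* (0.69) and *Car14* with *Slc4a4* (0.63), and *Car10* with *Car14* was the most opposed (-0.45).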

How the data were processed

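The SN of 48 male mice was profiled by bulk poly(A) RNA-seq with a kit that does not mark strand. The authors removed rDNA reads, aligned with STAR 2.7.5a to mm10 (GENCODE vM24 annotation), removed duplicates with Picard 2.21.9 and deposited counts per gene from featureCounts 2.0.1, which kept the primary alignment of multimapping reads. The authors left out 6 mice, adjusted the counts of 42 with ComBat-seq, keeping O2 and injection as covariates, and deposited these counts and TPM computed from them. Batch-corrected counts were tested with edgeR 4.0.16 (R 4.3.3) with TMM, filterByExpr with a minimum count of 10, the quasi-likelihood test and 4 groups without a batch term. An SE is the absolute log2 fold change over the square root of F, and intervals span 2 SE. Relations used log2 CPM. Alternatives used DESeq2 1.42.0, limma 3.58.1 on log2(TPM + 1), batch as a covariate, single batches, the replicate number as a block and each mouse left out. Positions come from GENCODE vM21 on GRCm38. Scripts were tested on simulated data. Total counts per analysed mouse ran from 12902996 to 17120921 before batch correction and from 12360798 to 16566973 after it.

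The members and gene lists were chosen with earlier results of these data known. The rule for names took the 9 members, the listed acid-base genes called in at least 1 comparison or else the one with the smallest p of its list, the 3 genes most like each member and the most abundant gene of each cell type list, and those that fall under a restriction on names are not reported here. Outside this rule, Th and Vegfa were named as checks of the tissue and of low O2, Aph1a for its overlap with Car14, and Cldn5, Flt1, Mog, Opalin, Cnp, Slco1a4 and Aspa after their values were seen. None of the cell type lists had a gene at 0 in every mouse. Their most abundant genes included Gfap, Slc2a1, Ttr, Slc6a3, Tubb3, C1qa and Hbb-bs. Of the choroid plexus list, 1 of 8 genes was called higher in PFF mice at 21% O2 (median log2 fold change 0.61), beside 2.29% of all genes. None was called in the other comparisons. There the median was 0.31 in monomer and -0.27 in PFF mice at 11% against 21% O2. It was -0.25 for PFF against monomer at 11% O2 and -0.64 for the interaction, with 8 of 8 genes lower in the interaction.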

Additional observations from a re-analysis of the deposited data

Results flagged for a closer look

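*Car12* in monomer mouse 5 at 11% O2 stood apart from the other 8 mice of its group: it had 1.20 TPM, and the next highest mouse 0.696, a gap of 0.594 of the group's range. This was the only such gap in 18 tests, each of a member in a group of 9 or 10 mice, and chance marks about 1 in 20. The groups at 21% O2, of 11 and 12 mice, were not tested for such gaps. There *Car12* in monomer mouse 7 stood at 2.54 TPM, against 1.23 in the next mouse of its group. Monomer mouse 5 at 11% O2 ranked number 30 of 42 for the summed choroid plexus list. It is also among the 4 mice without which the interaction for *Car14* passed.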

How the results depend on the processing

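Of 539 member fold changes set against the main fit outside the leave-one-out fits, 489 kept their sign and their side of the thresholds. The 539 include the main values judged by adjusted p alone, which could not change sign. The limma fits on log2(TPM + 1) with and without a minimum mean of 1 TPM share their fold changes. *Car4* and *Car14* in monomer mice at 11% O2 were called under every alternative run, with folds from 0.57 to 0.78 and 0.52 to 0.62 on the log2 scale. *Car4* in PFF mice ran from 0.49 to 0.54 and was called in all but the single batches, where the number of members called fell from 1 to 0 in batches 1, 2 and 3 (0.50, 0.54 and 0.51, fewer mice a group). Without a batch term on the uncorrected counts, 1 member was called for PFF at 21% O2, *Car14* (0.27, adjusted p 0.0350), and the cause was not tested. Leaving out each mouse gave 0 to 1 members for PFF at 21% O2 and for the interaction, 2 for low O2 in monomer mice and 1 in PFF mice. The numbers of pairs with cell type lists that passed, 25, were 22 with log2(TPM + 1), 24 on uncorrected counts and 25 with rho. Over all genes the calls for PFF at 21% O2 went from 549 to 1127 without the fold threshold, for low O2 in monomer mice from 1073 to 1961 without it and 657 with batch as a covariate, and for the interaction from 2.14% to 1.38% of genes with that covariate and 152 genes with all 48 mice. Low O2 in PFF mice gave 57 in place of 86 without a batch term, and batch 1 alone gave 9, 297, 6 and 11 for PFF at 21% O2, low O2 in monomer mice, low O2 in PFF mice and the interaction. Batches 2 and 3 alone gave 7 and 2 for low O2 in PFF mice. DESeq2 called 1 gene for PFF at 11% O2 in place of 0.

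Sign changes came to 46, none of them past the threshold, and none of a member whose value in the text exceeds 0.20 in size. For PFF at 11% O2, *Car4* (0.0013) became -0.0023 with DESeq2, -0.0025 with its size factors, -0.0025 without the filter, -0.0019 and -0.074 with batch as a covariate in 42 and 48 mice, -0.027 without a batch term, -0.0065 in batch 3, -0.0013 with only the groups compared, -0.020 with limma on log2(TPM + 1), with or without a minimum mean of 1 TPM, and -0.021 with a pseudocount of 0.1. In the same comparison *Car12* became -0.0030 and -0.053 with limma at pseudocounts of 1 and 0.1, and -0.097 in batch 3. There *Car10* was 0.16 and *Car11* 0.13 in batch 3, *Car8* -0.047 in batch 1, *Car11* 0.043 in 48 mice, and *Car10* 0.019 and *Slc4a4* 0.024 without a batch term. For PFF at 21% O2, batch 1 gave *Car2* 0.11 and *Car11* 0.0041, batch 2 gave *Car8* -0.21 and *Slc4a4* -0.070, and no batch term gave *Car2* 0.019. For low O2 in monomer mice, *Car11* was -0.049 without a batch term and -0.034 and -0.055 with the covariate in 42 and 48 mice, and *Car10* was 0.078 in batch 1. For low O2 in PFF mice, batch 1 gave *Car2* -0.049, *Car8* -0.18, *Car10* -0.034, *Car12* 0.24 and *Slc4a4* -0.045, batch 2 gave *Car11* -0.054, batch 3 *Slc4a4* -0.010, and the 48 mice *Car2* -0.0021, *Car12* 0.43 and *Slc4a4* -0.026. For the interaction, batch 1 gave *Car8* -0.38, *Car10* -0.11 and *Car11* -0.088, and the covariate gave *Car8* -0.010 and -0.012 in 42 and 48 mice. With each mouse left out, signs changed within -0.047 to 0.0099 (*Car2*) and -0.0033 to 0.072 (*Car8*) for PFF at 21% O2, -0.065 to 0.054 (*Car4*), -0.067 to 0.0074 (*Car10*), -0.052 to 0.0063 (*Car11*), -0.090 to 0.21 (*Car12*) and -0.035 to 0.026 (*Slc4a4*) for PFF at 11% O2, -0.014 to 0.050 (*Car11*) for low O2 in monomer mice, and -0.020 to 0.057 (*Car8*) and -0.018 to 0.044 (*Car11*) for the interaction.

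The study's methods describe matched pairs of mice, and the main tests took no account of pairs. Whether replicate numbers mark those pairs is uncertain. Deviations of mice with the same number were compared by correlation in the 4 pairwise comparisons. The correlation exceeded 0.1 in 4 of 11, 1 of 7, 0 of 8 and 5 of 10 pairs. Such a count cannot show whether the numbers mark pairs. With the replicate block the numbers of members called were the same, *Car4* changed by 0.58 and 0.49 with low O2 in monomer and PFF mice, *Car4* for PFF at 11% O2 became -0.031 and *Car11* for the interaction -0.047. Depth limits *Car9* and *Car12*, at under 1 TPM in the mean.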
